A study of Mus musculus with 23 samples.

Results

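The Hox, Sox, Pax, Tbx and Gata transcription factors form 5 families of DNA-binding proteins that pattern the embryo. The families were chosen with earlier results of these data known, in which Hoxd13 and Sox3 had risen after deletion, and genes were then taken as members by their symbol; 86 of the 24506 genes of the deposited expression table matched, 39 Hox, 19 Sox, 9 Pax, 13 Tbx and 6 Gata genes. The values are FPKM, fragment numbers scaled to transcript length and library size, from RNA-seq of mouse oocytes at the germinal vesicle (GV) stage and of zygotes and 2-cell embryos, with or without maternal Cxxc1. Cxxc1 encodes CFP1, the subunit of the SETD1 histone methyltransferase complex whose CXXC zinc finger binds unmethylated CpG dinucleotides.

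Hox genes lie in 4 clusters, in which gene order follows the order of their expression along the body axis, and in most cells that do not use them they are held silent by Polycomb complexes, while methylation of histone H3 by SETD1 and MLL complexes marks active promoters. Sox proteins carry an SRY-type HMG box, Pax proteins a paired domain, Tbx proteins a T-box and Gata proteins zinc fingers that bind GATA sites. Several members, among them Sox2, Gata3, Gata4 and Gata6, act in the first lineage choices of the embryo.

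The deletion was compared with its wild-type counterpart 4 times, and no library served in more than 1 of these comparisons. GV oocytes of Cxxc1fl/fl;Zp3-Cre females aged 3 weeks (3 libraries, called Zp3-Cre oocytes here) were set against GV oocytes of wild-type females aged 3 weeks (3 libraries). GV oocytes of Cxxc1fl/fl;Gdf9-Cre females aged 3 months (3 libraries, Gdf9-Cre oocytes) were set against GV oocytes of wild-type females aged 3 months (3 libraries). Zygotes (3 libraries) and 2-cell embryos (3 libraries) of Cxxc1fl/fl;Zp3-Cre mothers and wild-type fathers were set against zygotes (3 libraries) and 2-cell embryos (2 libraries) with both parents wild type, and they are called maternal-deletion embryos here. The age of the mothers of the embryos is not given in the sources used here. Both Cre drivers act in the oocyte, Gdf9-Cre from an earlier follicle stage than Zp3-Cre, so the embryos had a deletion of the maternal allele and an intact allele from the father. Cre driver and age differ together between the oocyte models and cannot be told apart. The labels do not say that replicates came from separate animals, so the p-values measure the spread between these libraries, and the number of oocytes or embryos in a library is not given; fewer cells of a type and less RNA per cell cannot be told apart.

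The promoters of 6 genes show the range of sequence at the starts of the genes described below: Hoxd13, the Hox gene with the largest difference, its neighbour Hoxd12, which stayed below 1 FPKM in every library, Hoxd1 at the other end of the same cluster, Gata3, which was higher in all 4 deletion comparisons, and Gata1 and Tbx20, which were lower after deletion at the 2-cell stage. Each runs 5′ to 3′ on the strand of its gene, from 250 bases before to 50 bases after the annotated start, and was taken from RefSeq (build GRCm38.p6). The capitals mark every CG, the dinucleotide that the CXXC finger of CFP1 binds when it is unmethylated; CG reads the same on both strands, so each is counted once.
Hoxd13: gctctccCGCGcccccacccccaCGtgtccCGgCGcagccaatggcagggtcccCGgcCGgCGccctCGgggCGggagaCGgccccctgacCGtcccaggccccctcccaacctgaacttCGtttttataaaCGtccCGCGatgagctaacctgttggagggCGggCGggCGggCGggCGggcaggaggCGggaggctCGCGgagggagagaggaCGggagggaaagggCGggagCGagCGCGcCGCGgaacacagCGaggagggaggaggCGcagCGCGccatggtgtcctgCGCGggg
Hoxd12: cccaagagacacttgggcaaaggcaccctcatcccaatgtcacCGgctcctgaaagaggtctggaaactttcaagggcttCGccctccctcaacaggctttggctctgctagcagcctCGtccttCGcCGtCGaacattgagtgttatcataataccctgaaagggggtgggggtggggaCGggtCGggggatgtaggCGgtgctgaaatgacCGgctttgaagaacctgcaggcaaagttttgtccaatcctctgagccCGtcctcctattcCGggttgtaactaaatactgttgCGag
Hoxd1: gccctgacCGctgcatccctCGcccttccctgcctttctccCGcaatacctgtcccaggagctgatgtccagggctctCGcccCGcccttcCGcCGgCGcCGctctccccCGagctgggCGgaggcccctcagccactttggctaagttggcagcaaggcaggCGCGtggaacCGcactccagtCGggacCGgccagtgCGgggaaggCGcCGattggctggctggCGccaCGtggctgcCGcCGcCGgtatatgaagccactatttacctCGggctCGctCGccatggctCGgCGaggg
Gata3: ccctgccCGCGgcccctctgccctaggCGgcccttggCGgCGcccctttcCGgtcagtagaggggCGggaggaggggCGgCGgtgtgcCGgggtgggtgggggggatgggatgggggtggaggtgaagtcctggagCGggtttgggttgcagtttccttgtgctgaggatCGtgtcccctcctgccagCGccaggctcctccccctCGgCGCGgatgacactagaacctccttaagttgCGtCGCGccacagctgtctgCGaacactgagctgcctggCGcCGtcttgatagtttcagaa
Gata1: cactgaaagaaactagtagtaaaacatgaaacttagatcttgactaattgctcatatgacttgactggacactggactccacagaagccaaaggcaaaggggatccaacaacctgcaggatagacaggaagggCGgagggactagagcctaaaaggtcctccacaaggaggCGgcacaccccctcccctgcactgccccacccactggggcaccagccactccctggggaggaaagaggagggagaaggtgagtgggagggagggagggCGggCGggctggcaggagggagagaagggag
Tbx20: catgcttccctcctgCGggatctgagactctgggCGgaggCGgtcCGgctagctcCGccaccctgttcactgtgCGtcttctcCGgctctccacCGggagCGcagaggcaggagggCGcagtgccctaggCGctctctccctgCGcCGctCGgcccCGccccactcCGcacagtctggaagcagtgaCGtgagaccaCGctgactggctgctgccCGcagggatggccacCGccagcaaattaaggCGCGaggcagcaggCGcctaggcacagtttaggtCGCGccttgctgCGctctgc
Hoxd13 lies on the plus strand at chr2:74667975-74668274, and its 37 CG exceed those of 94.4% of all 32851 promoters in the RefSeq table. Hoxd12 (plus strand, chr2:74674763-74675062) has 13, and Hoxd1 (plus strand, chr2:74762730-74763029) has 29. Gata3 (minus strand, chr2:9878551-9878850) has 22, Gata1 (minus strand, chrX:7967861-7968160) has 4, and Tbx20 (minus strand, chr9:24774254-24774553) has 26. The median was 15 CG over 69 entries of 55 members and 7 over all entries, of which 94.6% hold at least 1. High and low counts occurred among members that were higher as well as among those that were lower. Hoxa7, higher in all 4 comparisons, has 9 CG, beside the 37 of Hoxd13. Of the 2-cell decreases, Tbx20 has 26 and Gata1 has 4. Sox3 and Hoxb2 have no entry in the table. These counts describe the letters in the window, and neither methylation nor binding of CFP1 was read from them.

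As a check of the labels, Cxxc1 stood at 0.893 to 1.49 FPKM in Zp3-Cre oocytes against 37.9 to 41.6 FPKM in 3-week wild-type oocytes, and it was lower in each of the other deletion groups as well. In the 2-cell embryos it was 1.17, 0.626 and 4.16 FPKM in maternal-deletion libraries 1 to 3 and 9.94 and 11 FPKM in wild-type libraries. Maternal-deletion 2-cell library 3 stood apart, with correlations of 0.936 to 0.942 to its own group where all other within-group correlations were at least 0.978. Its 8 stroma markers summed to 139 FPKM, against 6.88 and 5.87 FPKM in maternal-deletion libraries 1 and 2 and 2.00 and 1.2 FPKM in the wild-type libraries, with Lum listed at 0 in all 5. Differences without this library are given for Sox3 and for those members called with it that moved by over 1.5 times or lost their call. Without it 28 members were called at the 2-cell stage, 10 higher and 18 lower, in place of 27, 10 higher and 17 lower. Over all genes 4917 were then higher and 4524 lower, in place of 5112 and 4047. The 28 include members not called with the library, which are not named here. The absolute depth is unknown, because FPKM keeps no totals, but the steps between low values put the relative depth of the libraries at 0.509 to 1.49 times that of 3-week wild-type library 1, with the lowest in Zp3-Cre oocyte library 3.

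In wild-type libraries most members were silent or nearly so: 44 of the 86 never reached 1 FPKM in any of the 23 libraries, deletion libraries included, and Hoxb5, Hoxc12 and Tbx22 were listed at 0 throughout. The filter of at least 1 FPKM in at least 2 libraries kept 37 members (12 Hox, 11 Sox, 4 Pax, 5 Tbx and 5 Gata) and left out 49. A member could pass through the group in which it was high, so counts over the 37 are a description of them only. In 3-week wild-type oocytes 13 members had a mean of at least 1 FPKM. The highest was Tbx4, a T-box factor of hindlimb and lung, at 84.3, 86.1 and 84.5 FPKM. Next came Sox15, a SoxG factor active in muscle progenitors, at 17.9, 16.4 and 16 FPKM, Gata4, a factor of heart and gonad, at 14.7, 16.8 and 12.8 FPKM, and Pax2, a factor of kidney development, at 12.1, 15.3 and 15 FPKM. The range of Gata4 overlapped those of Sox15 and Pax2, while Tbx4 was far above all of them. The only Hox genes above 1 FPKM were Hoxa7, at 8.39, 8.89 and 10.3 FPKM, and Hoxd9, at 1.19, 1.11 and 1.30 FPKM.

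Each difference below is a log2 fold change of FPKM + 1 with its standard error, from a limma fit over all 13776 genes that passed the filter, with p-values adjusted by the Benjamini-Hochberg method over all of them and a threshold of 0.05. The added 1 makes such a difference smaller than the log2 ratio of the means where a gene is low. In Zp3-Cre oocytes 15 of the 37 tested members passed the threshold, 10 higher and 5 lower, beside 29.6% of all tested genes, 18.3% higher and 11.3% lower. In Gdf9-Cre oocytes 26 members passed, 22 higher and 4 lower, beside 49.5% of genes, 34.2% higher and 15.2% lower. In maternal-deletion zygotes 14 members passed, 10 higher and 4 lower, beside 46.7% of genes, 35.3% higher and 11.4% lower, so the members' share, 37.8%, was below that of all genes. In maternal-deletion 2-cell embryos 27 members passed, 10 higher and 17 lower, beside 66.5% of genes, 37.1% higher and 29.4% lower. The median log2 fold change of the tested members was 0.26, 0.65, 0.04 and -0.41 in these comparisons in turn, beside 0.09, 0.20, 0.22 and 0.16 for all tested genes. Median-of-ratios scaling moved the medians of all genes to 0.01, 0.03, -0.04 and -0.03, and with it lower calls outnumbered higher ones over all genes in each comparison. In Zp3-Cre oocytes 1547 genes were then higher and 1863 lower (2524 and 1557 without the scaling), in Gdf9-Cre oocytes 2897 and 3105 (4718 and 2100), in zygotes 2804 and 4020 (4860 and 1571) and in 2-cell embryos 4152 and 4867 (5112 and 4047). The members were then 8 higher and 5 lower in Zp3-Cre oocytes, 19 and 5 in Gdf9-Cre oocytes, 8 and 8 in zygotes and 10 and 20 in 2-cell embryos. In all, 35 of the 37 were called in at least 1 comparison, where 87.8% of all tested genes were, and Hoxa13 and Hoxd8 were called in none.

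**Figure D1:**
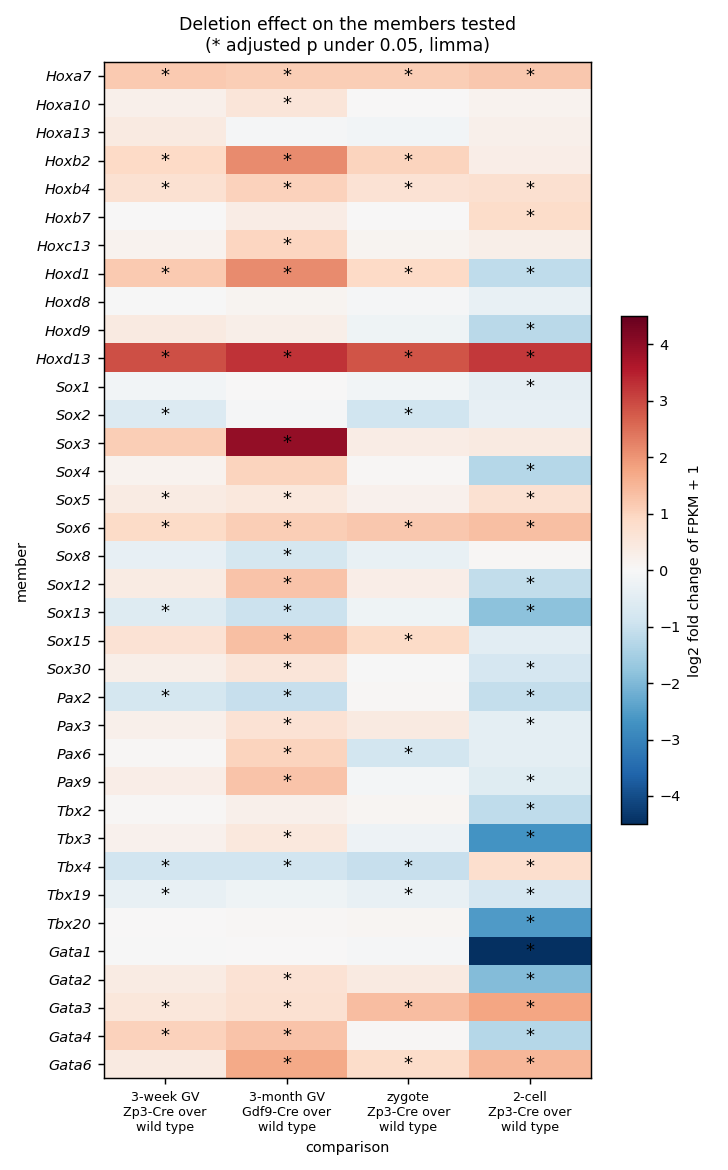
Log2 fold change of FPKM + 1 for 36 of the tested members (rows) in the 4 comparisons of deletion with wild type (columns), in colour, with an asterisk where the adjusted p of limma is under 0.05. Hoxd13 has the same dark colour in every column (2.82 to 3.26), while Tbx4 is lower in the first 3 columns and higher in 2-cell embryos, and Gata4 is higher in both oocyte models and lower in 2-cell embryos.

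Of the 37 members, 6 were higher in all 4 comparisons, among them Hoxa7, Hoxb4, Hoxd13, Sox6 and Gata3. Over all tested genes 856, or 6.21%, were. With median-of-ratios scaling 2.39% of all genes were, and with quantile normalization 3.2%, while the members remained the same 6. No member was lower in all 4, beside 1.53% of all genes, whereas Sox13 and Tbx19 were under either scaling (3.16% and 2.64% of genes), and 10 members were higher in 1 comparison and lower in another, beside 24.0% of all genes. These 6 calls held in every comparison under every alternative that was run, the scalings and each left-out library included.

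Hoxd13, the gene at the 5′ end of the Hoxd cluster that shapes the digits and the genital tubercle, had the largest increase of any Hox gene in each comparison. It was at 8.98, 6.36 and 12.8 FPKM in Zp3-Cre oocytes and at 0.353, 0.231 and 0.446 FPKM in 3-week wild-type oocytes. In Gdf9-Cre oocytes it reached 16.2, 17.2 and 15 FPKM, against 0.640, 1.16 and 0.611 FPKM in 3-month wild-type oocytes. The groups lay far apart at both ages, and the highest wild-type value was that of 3-month library 2. In maternal-deletion zygotes the values were 9.41, 9.26 and 11.5 FPKM, and in wild-type zygotes 0.486, 0.683 and 0.513 FPKM. In maternal-deletion 2-cell embryos they were 10.6, 17.7 and 16.8 FPKM, and in wild-type 2-cell embryos 0.727 and 0.721 FPKM. The ratio of the means was 27.3 and 20.0 in the Zp3-Cre and Gdf9-Cre oocytes, 17.9 in zygotes and 20.8 in 2-cell embryos. The log2 fold changes were 2.90 ± 0.197 (adjusted p = 4.67e-09), 3.26 ± 0.197 (4.4e-10), 2.82 ± 0.197 (4.31e-10) and 3.19 ± 0.220 (1.87e-10, limma), which placed Hoxd13 at rank 11, 19, 120 and 40 from the top of 13776 genes. The maternal-deletion embryos, with an intact paternal allele, had 9.26 to 17.7 FPKM, and the oocytes of the same maternal genotype had 6.36 to 12.8 FPKM.

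The neighbours of Hoxd13 did not share this level. Evx2, the homeobox gene just beyond it, stayed at or below 0.699 FPKM in all 23 libraries, Hoxd12, the next gene of the cluster, at or below 0.684 FPKM, and Hoxd11 at or below 0.579 FPKM. At the far end of the cluster lies Hoxd1, which in mouse acts in the wiring of pain-sensing neurons. It was at 3.32, 1.75 and 0.954 FPKM in Zp3-Cre oocytes and 0.194, 0.397 and 0.175 FPKM in 3-week wild-type oocytes, a log2 fold change of 1.19 ± 0.288 (limma, adjusted p = 0.00409). In Gdf9-Cre oocytes it was at 6.75, 6.52 and 4.21 FPKM and in 3-month wild-type oocytes at 0.592, 0.569 and 0.422 FPKM, a log2 fold change of 2.14 ± 0.288 (adjusted p = 6.53e-06). Hoxd1 was separated in both oocyte models, while the genes between the ends of the cluster, Hoxd9 apart, stayed below 1 FPKM in every oocyte library. In maternal-deletion zygotes it was at 1.68, 0.914 and 2.40 FPKM against 0.667, 0.417 and 0.101 FPKM in wild-type zygotes (0.91 ± 0.288, adjusted p = 0.0129), a call that was lost without wild-type library 3 (0.75, adjusted p = 0.0667) or deletion library 3 (0.72, adjusted p = 0.0729). The zygote call was also lost with quantile normalization (0.71, limma, adjusted p = 0.0519). Hoxd9, which acts in axial and limb patterning, had 1.05 to 3.06 FPKM in the 6 deletion oocyte libraries against 1.11 to 1.84 FPKM in the 6 wild-type libraries, and did not pass the threshold at either age (0.39, adjusted p = 0.354, and 0.27, adjusted p = 0.466).

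**Figure D2:**
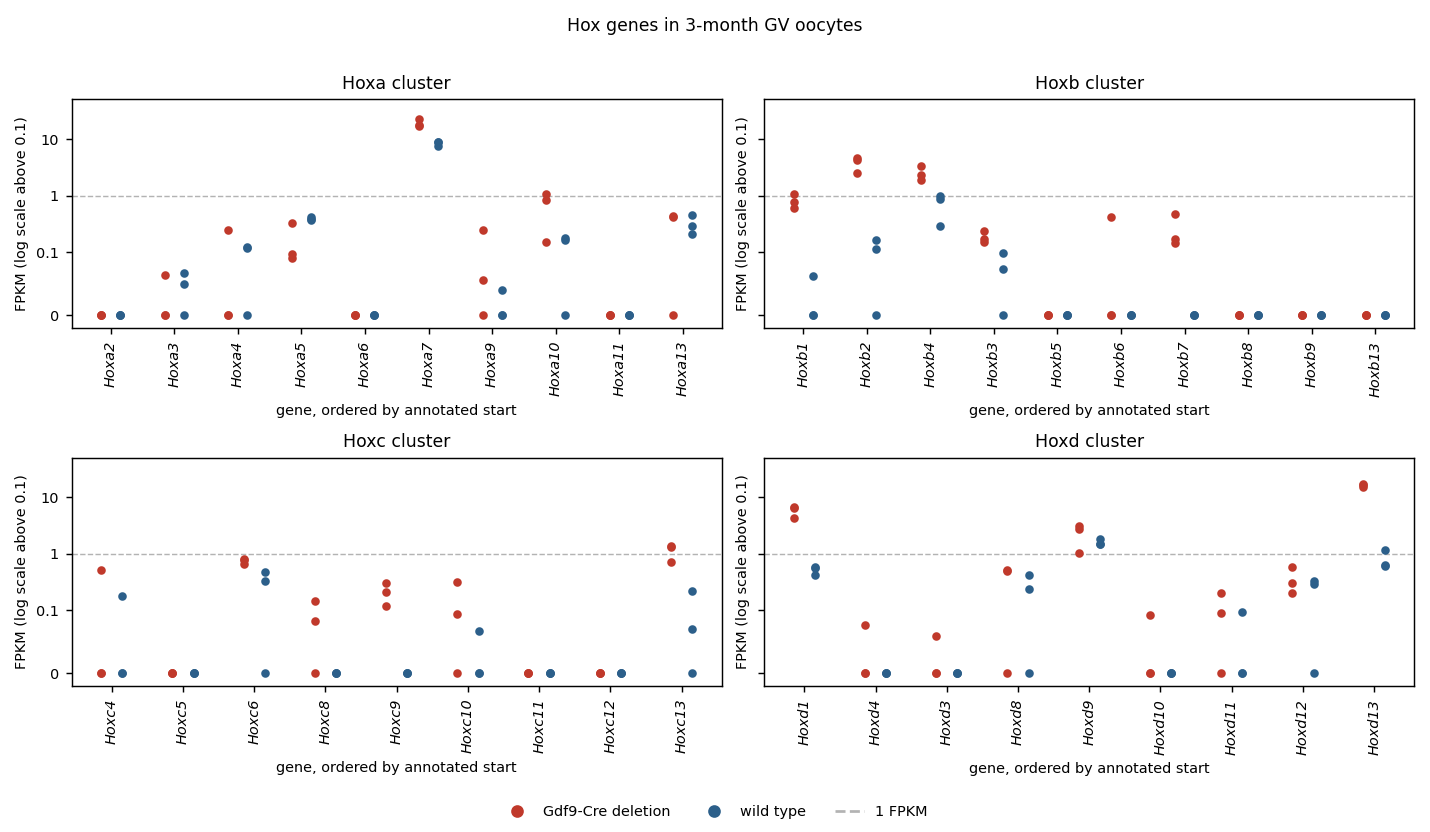
FPKM of 38 Hox genes in Gdf9-Cre oocytes and 3-month wild-type oocytes, 1 point per library, with the genes of the Hoxa, Hoxb, Hoxc and Hoxd clusters in the order of their annotated starts (dashed line at 1 FPKM). In Gdf9-Cre oocytes Hoxd13, at 15 to 17.2 FPKM, stands out beside Hoxd12, which is below 1 FPKM. Hoxb2, at 2.52 to 4.66 FPKM there, lies between Hoxb4 at 1.86 to 3.39 FPKM and Hoxb1 at 0.603 to 1.06 FPKM. Hoxa7 is above 7 FPKM in both groups.

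Across the Hox family, 6, 8, 6 and 5 of 12 tested genes were higher in Zp3-Cre oocytes, Gdf9-Cre oocytes, zygotes and 2-cell embryos, and 0, 0, 0 and 2 were lower. Over all tested genes 18.3, 34.2, 35.3 and 37.1% were higher and 11.3, 15.2, 11.4 and 29.4% lower in these comparisons. With median-of-ratios scaling 5, 7, 6 and 5 Hox genes were higher and 0, 0, 0 and 3 lower, and with quantile normalization 5, 7, 4 and 5 were higher and 0, 0, 0 and 2 lower. The other 27 of the 39 did not pass the filter. The FPKM of all 39 summed to 40.9 to 44.8 in Zp3-Cre oocytes against 13.1 to 14.7 in 3-week wild-type oocytes. The sum was 58.3 to 61.7 in Gdf9-Cre oocytes against 13.8 to 14.7 in 3-month wild-type oocytes. It was 46.0 to 49.6 in maternal-deletion zygotes against 15.2 to 20.2 in wild-type zygotes, and 57.6 to 74.0 in maternal-deletion 2-cell embryos against 21.7 and 35.1 in wild-type ones. Hoxd13 and Hoxa7 made up most of each deletion sum.

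Hoxa7, a trunk Hox gene, differed from the others in being present in wild type already, and its differences were close to each other in size. Zp3-Cre oocytes had 21.3, 25.4 and 19.7 FPKM against 8.39, 8.89 and 10.3 FPKM in 3-week wild-type oocytes, and Gdf9-Cre oocytes 17.2, 17.6 and 23 FPKM against 8.78, 7.64 and 9 FPKM in 3-month wild-type oocytes. Maternal-deletion zygotes had 25.6, 30.2 and 26.1 FPKM against 15.2, 10.7 and 10.6 FPKM in wild-type zygotes, and maternal-deletion 2-cell embryos 35.6, 39.4 and 36.1 FPKM against 17.3 and 13.3 FPKM in wild-type embryos. No pair of groups overlapped, the ratios of the means lay between 2.24 and 2.42, and the log2 fold changes between 1.09 and 1.23 (limma, adjusted p = 5.94e-06, 5.02e-06, 1.86e-06 and 1.21e-06).

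Hoxb4, a regulator of blood stem cells and of the neck vertebrae, was at 1.45, 1.78 and 1.87 FPKM in Zp3-Cre oocytes against 0.409, 0.946 and 0.677 FPKM in 3-week wild-type oocytes. It was at 1.86, 2.30 and 3.39 FPKM in Gdf9-Cre oocytes against 0.891, 0.990 and 0.294 FPKM in 3-month wild-type oocytes. Maternal-deletion zygotes had 0.908, 0.824 and 0.595 FPKM against 0.156, 0.146 and 0.0707 FPKM in wild-type zygotes, and maternal-deletion 2-cell embryos 0.940, 0.619 and 1.42 FPKM against 0.200 and 0.174 FPKM in wild-type embryos. The groups did not overlap at any stage. The log2 fold changes were 0.70, 1.03, 0.66 and 0.73 (limma, adjusted p = 0.00805, 0.00016, 0.00657 and 0.00462). Hoxb2, a hindbrain gene of the same cluster, was at 4.22, 4.66 and 2.52 FPKM in Gdf9-Cre oocytes against 0.115, 0 and 0.164 FPKM in 3-month wild-type oocytes, a log2 fold change of 2.11 ± 0.293 (adjusted p = 9.56e-06). Its calls in Zp3-Cre oocytes (0.91 ± 0.293, adjusted p = 0.0242) and zygotes (1.01 ± 0.293, adjusted p = 0.00758) were weaker. The first was lost without any 1 of 5 libraries (0.74 to 0.94), and the second without zygote deletion library 1 (0.79, adjusted p = 0.0528) or 3 (0.76, adjusted p = 0.0549). The first was also lost with median-of-ratios scaling (adjusted p = 0.0679), quantile normalization (0.11) and no filter (0.0605). The second was also lost with quantile normalization (0.0837) and with only the groups compared (0.102).

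The remaining Hox calls were of low genes. Hoxc13, a hair follicle factor, was at 1.29, 1.38 and 0.720 FPKM in Gdf9-Cre oocytes against 0.218, 0.0701 and 0 FPKM in 3-month wild-type oocytes (0.95 ± 0.130, limma, adjusted p = 8.33e-06). Hoxa10, a factor of the uterus and the lumbar spine, had 0.156, 0.837 and 1.07 FPKM there against 0.166, 0 and 0.178 FPKM, so the groups overlapped, and its call (0.56 ± 0.207, adjusted p = 0.0308) was lost without any 1 of 4 libraries. Hoxb7, a trunk Hox gene, was listed at 0 in both wild-type 2-cell libraries and stood at 0.319, 1.03 and 1.10 FPKM in the maternal-deletion ones. The table also holds RNAs from the opposite strand of the Hox clusters and of other members, Pax6os1 and Tbx3os2 among them. Whether fragments were assigned by strand is not given in the sources used here, so a gene and its antisense partner cannot be told apart.

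**Figure D3:**
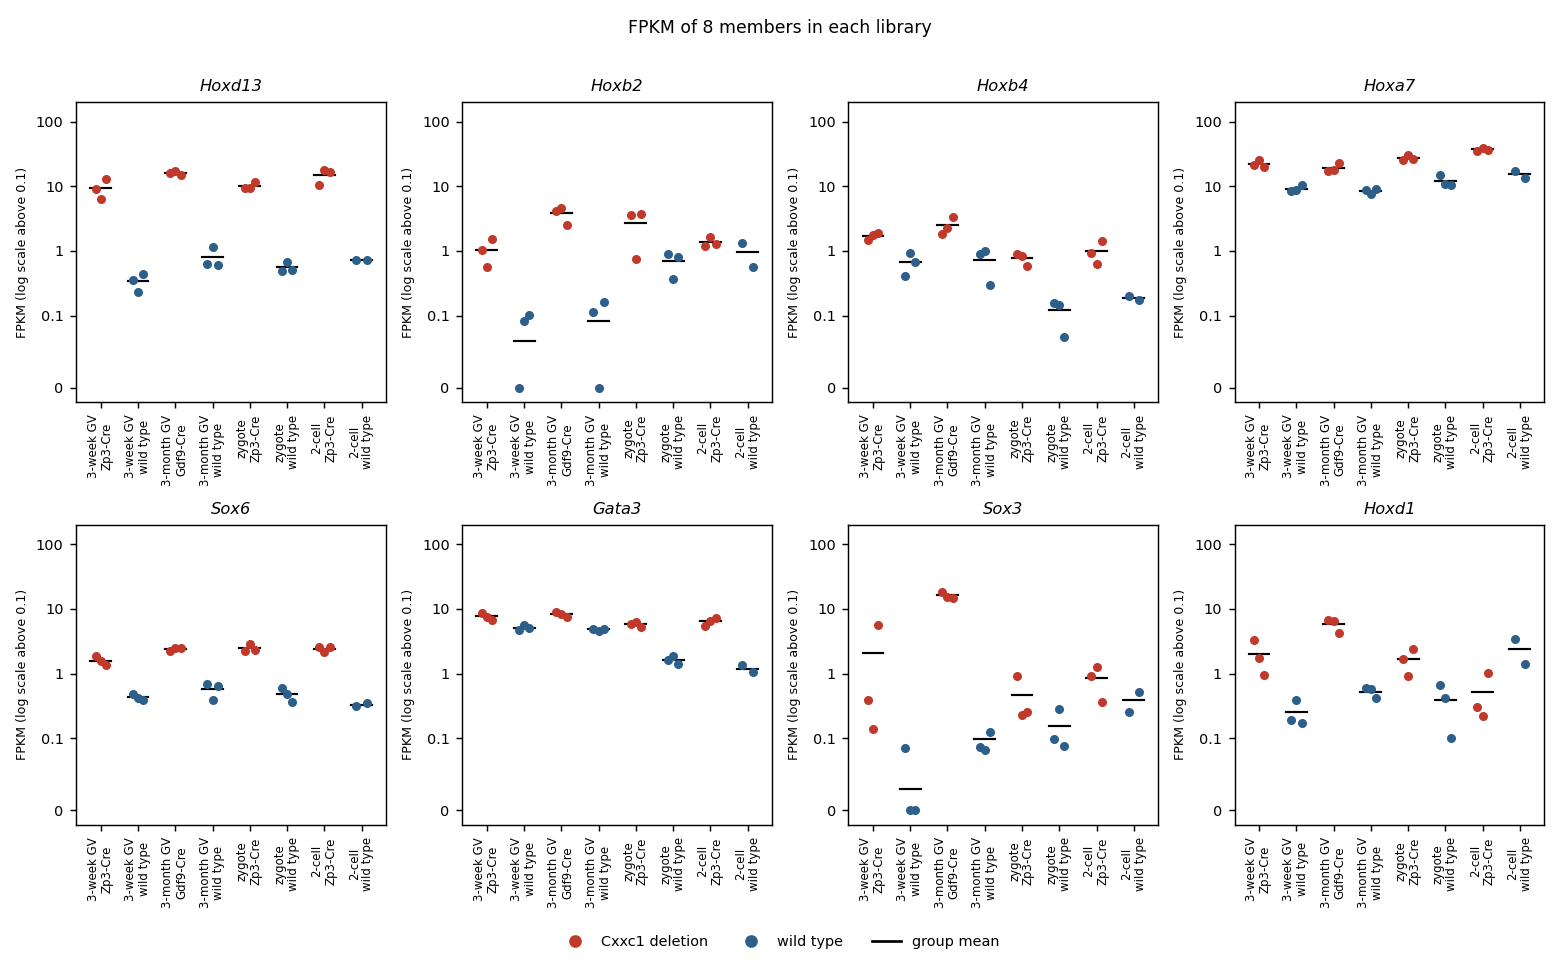
FPKM of Hoxd13, Hoxb2, Hoxb4, Hoxa7, Sox6, Gata3, Sox3 and Hoxd1 in each library of the 8 groups (1 panel per gene, points for libraries, short lines for group means, vertical axis logarithmic above 0.1 FPKM). Hoxd13, Hoxb4, Hoxa7, Sox6 and Gata3 are higher in each deletion group than in the wild-type group beside it, Sox3 is high in Gdf9-Cre oocytes and in 1 library of Zp3-Cre oocytes, and Hoxd1 changes direction in 2-cell embryos.

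Among the Sox genes, Sox3, an X-linked SoxB1 factor of neural progenitors, the pituitary and the gonads, had the largest increase of any member in Gdf9-Cre oocytes, at rank 5 of 13776 genes. It was at 18.4, 15.5 and 14.8 FPKM there against 0.0875, 0.0843 and 0.125 FPKM in 3-month wild-type oocytes, and its log2 fold change was 3.97 ± 0.408 (limma, adjusted p = 2.96e-07). In Zp3-Cre oocytes it was at 0.395, 0.142 and 5.61 FPKM, against 0.0866, 0 and 0 FPKM in 3-week wild-type oocytes. Library 3, the least deep of all 23, was far above the other two. The difference was 1.09 ± 0.408 with an adjusted p of 0.0505 over all libraries, 0.30 with an adjusted p of 0.344 without it, and past the threshold without deletion library 1 (1.42, adjusted p = 0.0229) or 2 (1.56, adjusted p = 0.00796). With a pseudocount of 0.1 the difference passed the threshold (2.84, adjusted p = 0.011). In zygotes Sox3 was at 0.921, 0.233 and 0.252 FPKM after maternal deletion against 0.0991, 0.279 and 0.0897 FPKM in wild type, and in 2-cell embryos at 0.916, 1.27 and 0.359 FPKM against 0.254 and 0.515 FPKM. Both pairs overlapped and did not pass the threshold (0.32, adjusted p = 0.585, and 0.39, adjusted p = 0.463). Without maternal-deletion 2-cell library 3 the 2-cell libraries did not overlap, and the difference was 0.60 (adjusted p = 0.291); without library 2 it was 0.23 (adjusted p = 0.709). The increase in Gdf9-Cre oocytes exceeded that in Zp3-Cre oocytes by 2.87 ± 0.577 (test of the difference, limma, adjusted p = 0.00925), which became 0.0961 with a pseudocount of 0.1.

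Sox6 and Sox5 are SoxD factors that act with Sox9 in cartilage. Sox6 was at 1.85, 1.54 and 1.34 FPKM in Zp3-Cre oocytes against 0.488, 0.415 and 0.390 FPKM in 3-week wild-type oocytes, and at 2.27, 2.46 and 2.45 FPKM in Gdf9-Cre oocytes against 0.698, 0.393 and 0.643 FPKM in 3-month wild-type oocytes. It was at 2.21, 2.90 and 2.28 FPKM in maternal-deletion zygotes against 0.591, 0.485 and 0.367 FPKM in wild-type zygotes, and at 2.54, 2.17 and 2.55 FPKM in maternal-deletion 2-cell embryos against 0.317 and 0.346 FPKM in wild-type embryos. The libraries fell on either side of 1 FPKM at every stage, with log2 fold changes of 0.85, 1.11, 1.22 and 1.36 (limma, adjusted p = 2.84e-05, 4.59e-07, 4.74e-08 and 2.45e-08). Sox5 was lower throughout, at no more than 1.02 FPKM, and its 3 calls were of 0.38 in Zp3-Cre oocytes (adjusted p = 0.0313), 0.47 in Gdf9-Cre oocytes (0.00495) and 0.70 in 2-cell embryos (0.000217); the first was lost without any 1 of 4 libraries (0.29 to 0.38) and both oocyte calls under quantile normalization.

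Sox15 and Sox12 were higher in Gdf9-Cre oocytes. Sox15 was at 40.7, 35.0 and 38.1 FPKM there against 14.4, 15.9 and 12.4 FPKM in 3-month wild-type oocytes (1.36 ± 0.318, limma, adjusted p = 0.00162). Sox12, a SoxC factor, was at 5.21, 4.77 and 5.31 FPKM against 1.89, 1.46 and 1.2 FPKM (1.28 ± 0.320, adjusted p = 0.00261). Both pairs were well separated. In Zp3-Cre oocytes Sox15 was at 34.1, 25.2 and 23.1 FPKM against 17.9, 16.4 and 16 FPKM in 3-week wild-type oocytes, without overlap, at 0.66 ± 0.318 (adjusted p = 0.13). In maternal-deletion zygotes it was at 4.81, 2.09 and 1.00 FPKM against 0.787, 0.742 and 0.891 FPKM, and that call (0.87 ± 0.318, adjusted p = 0.0307) was lost without any 1 of 5 libraries, most of all without deletion library 1 (0.46, adjusted p = 0.237). The zygote call was also lost with median-of-ratios scaling (limma, adjusted p = 0.141), quantile normalization (0.206), no filter (0.0815) and only the groups compared (0.118). Sox30, a factor of spermatid maturation, had 0.379, 0.516 and 0.743 FPKM in Gdf9-Cre oocytes against 0, 0.111 and 0.0829 FPKM, called at 0.53 (adjusted p = 0.00199) and not under quantile normalization (0.18, adjusted p = 0.328).

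Of 11 tested Sox genes 2 were lower in each oocyte model, beside 11.3% of all tested genes in Zp3-Cre and 15.2% in Gdf9-Cre oocytes. In Zp3-Cre oocytes 2 were higher (1 under either scaling), beside 18.3% of all tested genes. In Gdf9-Cre oocytes 6 were higher (4 with quantile normalization), beside 34.2%. Sox13, the third SoxD gene, was at 0.362, 0.162 and 0.859 FPKM in Gdf9-Cre oocytes against 2.13, 1.82 and 1.49 FPKM in 3-month wild-type oocytes (-0.97 ± 0.179, limma, adjusted p = 0.0002), the only member present in every wild-type library and under 1 FPKM in every deletion library of an oocyte comparison. It was at 0.737, 0.158 and 0.380 FPKM in Zp3-Cre oocytes against 0.772, 1.38 and 1.27 FPKM (-0.59 ± 0.179, adjusted p = 0.0169), a call that was lost without wild-type library 2 or 3 or deletion library 2 (-0.51, -0.55 and -0.46, adjusted p = 0.0764, 0.0636 and 0.093). Sox2, a pluripotency factor, was lower in maternal-deletion zygotes, at 0.857, 1.68 and 1.77 FPKM against 2.62, 4.53 and 3.48 FPKM in wild-type zygotes (-0.90 ± 0.223, adjusted p = 0.0023). Its call in Zp3-Cre oocytes (-0.61 ± 0.223, adjusted p = 0.0451) was lost without any 1 of the 6 libraries (-0.49 to -0.70) and with the replicate number as a block (adjusted p = 0.0598). Sox8, a SoxE factor of the testis, was at 3.57, 3.16 and 5.31 FPKM in Gdf9-Cre oocytes against 8.60, 6.39 and 7.91 FPKM in 3-month wild-type oocytes (-0.80 ± 0.250, adjusted p = 0.0123; without deletion library 2 it was -0.68 with an adjusted p of 0.0589).

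The Pax genes moved in both directions. Pax2 was at 9.90, 7.84 and 5.71 FPKM in Zp3-Cre oocytes against 12.1, 15.3 and 15 FPKM in 3-week wild-type oocytes (-0.80 ± 0.193, limma, adjusted p = 0.00391). It was at 4.07, 5.36 and 7.17 FPKM in Gdf9-Cre oocytes against 11.1, 11.2 and 14.5 FPKM in 3-month wild-type oocytes (-1.04 ± 0.193, adjusted p = 0.000204). Every deletion oocyte was below every wild-type oocyte library of its age. Pax9, a factor of thymus and teeth, was at 1.79, 1.30 and 1.42 FPKM in Gdf9-Cre oocytes against 0.0683, 0 and 0 FPKM in 3-month wild-type oocytes (1.29 ± 0.170, adjusted p = 5.5e-06). Pax6, the eye and forebrain factor, was at 1.80, 1.99 and 1.39 FPKM in Gdf9-Cre oocytes against 0.513, 0.283 and 0.295 FPKM (1.00 ± 0.191, adjusted p = 0.000278). In zygotes it had the opposite direction, at 0.817, 0.685 and 1.22 FPKM after maternal deletion against 2.62, 1.98 and 2.54 FPKM in wild type (-0.83 ± 0.191, adjusted p = 0.00123). Pax3, a factor of muscle precursors and neural crest, was called in Gdf9-Cre oocytes at 0.65 (adjusted p = 0.00426) and not under quantile normalization (0.20, adjusted p = 0.455).

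Tbx4, the most abundant member of wild-type oocytes, was lower in 3 of the 4 comparisons and higher in the other. It was at 53.0, 41.3 and 44.4 FPKM in Zp3-Cre oocytes against 84.3, 86.1 and 84.5 FPKM in 3-week wild-type oocytes, and at 41.2, 42.7 and 47.3 FPKM in Gdf9-Cre oocytes against 79.0, 73.8 and 87.3 FPKM in 3-month wild-type oocytes. Maternal-deletion zygotes had 53.0, 51.3 and 54.1 FPKM against 110, 110 and 104 FPKM in wild-type zygotes. Maternal-deletion 2-cell embryos had 43.6, 51.2 and 36.0 FPKM against 25.7 and 24.1 FPKM in wild-type embryos. The wild-type level was lower in 2-cell embryos than in zygotes, while the deletion groups of all stages lay between 36.0 and 54.1 FPKM. The log2 fold changes were -0.87, -0.86, -1.02 and 0.77 (limma, adjusted p = 6.21e-06, 2.55e-06, 1.25e-07 and 1.01e-05), and the 2-cell change exceeded the zygote change by 1.79 ± 0.159 (adjusted p = 1.29e-08). Tbx19, the pituitary factor of Pomc expression, was lower by less, at -0.35 in Zp3-Cre oocytes (adjusted p = 0.0115), -0.32 in zygotes (0.0113) and -0.76 in 2-cell embryos (4.21e-06); the first was lost without wild-type library 1 (-0.29, adjusted p = 0.0674) or deletion library 3 (-0.28, adjusted p = 0.0655). Tbx3 was called in Gdf9-Cre oocytes, at 1.83, 1.87 and 2.07 FPKM against 0.790, 1.09 and 1.5 FPKM in 3-month wild-type oocytes (0.47 ± 0.142, adjusted p = 0.0098), and not without wild-type library 1 (0.35, adjusted p = 0.0678) or with either scaling.

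Among the Gata genes, Gata3, a factor of trophoblast and T cells, was higher throughout. It was at 8.59, 7.53 and 6.82 FPKM in Zp3-Cre oocytes against 4.64, 5.58 and 5.02 FPKM in 3-week wild-type oocytes, and at 9.09, 8.36 and 7.61 FPKM in Gdf9-Cre oocytes against 4.97, 4.54 and 4.91 FPKM in 3-month wild-type oocytes. It was at 5.91, 6.18 and 5.29 FPKM in maternal-deletion zygotes against 1.59, 1.84 and 1.39 FPKM in wild-type zygotes, and at 5.50, 6.43 and 7.33 FPKM in maternal-deletion 2-cell embryos against 1.34 and 1.05 FPKM in wild-type embryos. No groups overlapped, and the ratio of the means was 1.5 and 1.74 in the oocytes, 3.61 in zygotes and 5.39 in 2-cell embryos (log2 fold changes 0.51, 0.69, 1.38 and 1.76; limma, adjusted p = 0.00348, 0.000109, 9.3e-09 and 7.23e-10). Wild-type zygotes had less Gata3 than 3-week wild-type oocytes (-1.22 ± 0.120, adjusted p = 1.38e-08), and the deletion groups of all stages lay between 5.29 and 9.09 FPKM.

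Gata4 was higher in both oocyte models, at 29.1, 26.4 and 38.6 FPKM in Zp3-Cre oocytes against 14.7, 16.8 and 12.8 FPKM in 3-week wild-type oocytes (1.03 ± 0.146, limma, adjusted p = 3.28e-05). In Gdf9-Cre oocytes it was at 46.3, 42.5 and 35.8 FPKM against 15.6, 17.9 and 16.3 FPKM in 3-month wild-type oocytes (1.27 ± 0.146, adjusted p = 1.1e-06). In zygotes the maternal-deletion libraries, at 37.3, 34.1 and 47.9 FPKM, overlapped those of wild type, at 38.6, 39.5 and 36.4 FPKM (0.04, adjusted p = 0.854). Gata6, a factor of primitive endoderm, was at 3.73, 3.01 and 3.09 FPKM in Gdf9-Cre oocytes against 0.269, 0.363 and 0.309 FPKM in 3-month wild-type oocytes (1.70 ± 0.324, adjusted p = 0.000261). It was at 1.86, 0.651 and 1.72 FPKM in maternal-deletion zygotes against 0.556, 0.231 and 0.168 FPKM, a call (0.84 ± 0.324, adjusted p = 0.0392) that was lost without any 1 of 4 libraries (0.70 to 0.80). The zygote call was also lost with median-of-ratios scaling (limma, adjusted p = 0.067), quantile normalization (0.0982) and no filter (0.0971). Maternal-deletion 2-cell embryos had 1.49, 1.71 and 7.38 FPKM against 0.158 and 0.642 FPKM in wild-type embryos. The high value is that of library 3, and the log2 fold change was 1.48 ± 0.362 with it (adjusted p = 0.00134) and 0.91 without it (adjusted p = 0.00214). With only the groups compared in the fit that call was lost (adjusted p = 0.0864). Gata2, a factor of blood stem cells, was called in Gdf9-Cre oocytes at 0.66 (adjusted p = 0.0162), and without deletion library 1 or 3 it was not (0.54, adjusted p = 0.0766, and 0.60, adjusted p = 0.0556), nor with either scaling.

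Granulosa cells, which surround the oocyte and express Gata4 and Gata6, were represented by 14 markers, all of them in the table. Their summed level was 176, 103 and 92.7 FPKM in Gdf9-Cre oocytes against 37.9 to 40.8 FPKM in 3-month wild-type oocytes. There 8 of 12 tested markers were higher and 0 lower, beside 34.2% and 15.2% of all tested genes. In Zp3-Cre oocytes the sum was 62.8 to 74.9 FPKM against 49.3 to 61.9 FPKM in 3-week wild-type oocytes. Of the 12 tested markers 1 was higher there, beside 18.3% of all tested genes. The 8 stroma markers summed to 7.83 to 11 FPKM in Gdf9-Cre oocytes against 0.795 to 1.47 FPKM, and both tested markers, Dcn and Postn, were higher. Their sum was 4.41 to 5.62 FPKM in Zp3-Cre oocytes against 0.961 to 1.54 FPKM in 3-week wild-type oocytes, with Dcn higher (1.92, limma, adjusted p = 0.00904). In maternal-deletion zygotes it was 4.72 to 6.72 FPKM against 1.48 to 1.54 FPKM in wild-type zygotes, with Dcn and Postn higher. The stroma sum was thus separated from that of wild type in all 4 comparisons. Dcn and Postn made up most of each deletion sum in oocytes and zygotes. The other stroma markers were not tested and stayed at or below 0.573 FPKM in those deletion libraries. No granulosa marker was at 0 in every library of an oocyte group, and Lum was at 0 in every wild-type oocyte library. The part of these markers in the values of the deletion groups, those of Gata4, Gata6, Sox4 and Sox12 in Gdf9-Cre oocytes included, was not tested. Among the 10 oocyte markers, 4 were lower in each oocyte model and 1 was higher in Gdf9-Cre oocytes. Over all tested genes 11.3% were lower in Zp3-Cre oocytes, and 15.2% were lower and 34.2% higher in Gdf9-Cre oocytes. The sum of the oocyte markers was 8140 to 8747 FPKM in Zp3-Cre oocytes against 10040 to 10200 FPKM in 3-week wild-type oocytes. In the embryos the same markers were higher after maternal deletion, 9 of 10 in zygotes and 10 of 10 in 2-cell embryos. Over all tested genes 35.3% and 37.1% were higher. The sum of these markers was 2874 to 3698 FPKM in maternal-deletion zygotes against 1446 to 1509 FPKM in wild-type zygotes. It was 1944 to 2460 FPKM in maternal-deletion 2-cell embryos against 406 and 413 FPKM in wild-type ones. Gata3 was higher at both embryo stages, as these markers were, and also in both oocyte models, where 4 of the markers were lower. Tbx4 was higher in 2-cell embryos, as the markers were, and lower in zygotes, where they were higher. The part of these markers in the values of Gata3 and Tbx4 was not tested.

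**Figure D4:**
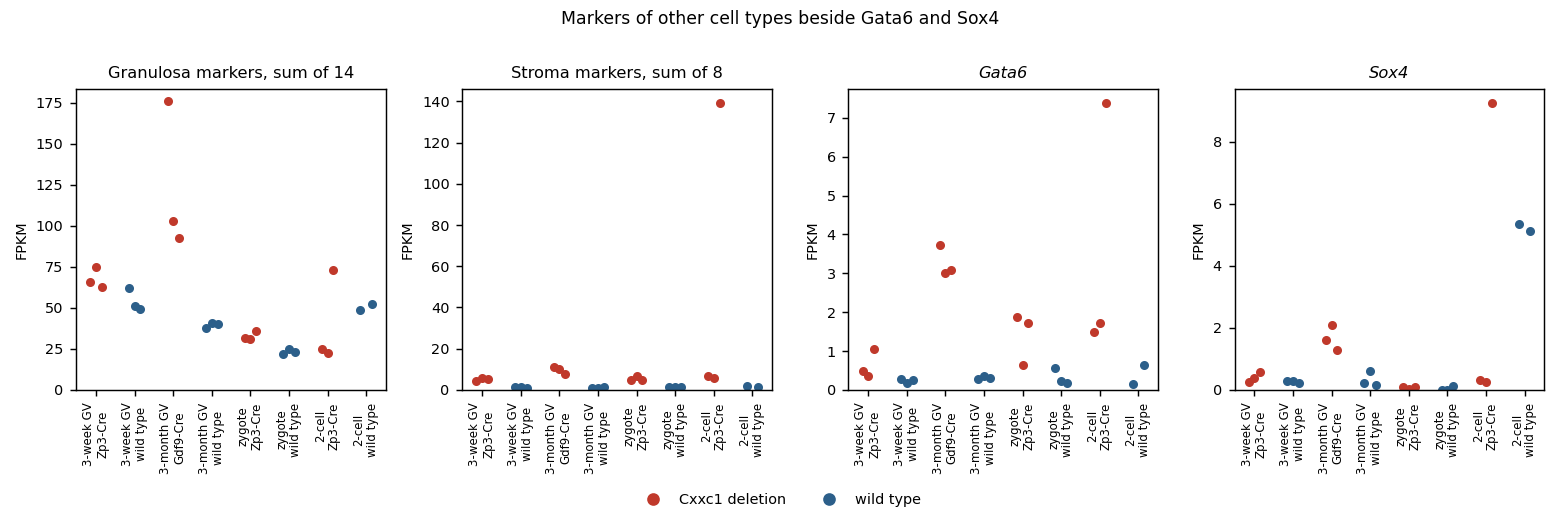
Summed FPKM of 14 granulosa markers and 8 stroma markers, and FPKM of Gata6 and Sox4, in each library of the 8 groups. The granulosa sum is highest in Gdf9-Cre oocytes (92.7 to 176 FPKM), where Gata6 is also at 3.01 to 3.73 FPKM, and maternal-deletion 2-cell library 3 stands apart in the stroma sum (139 FPKM) and in Sox4 (9.25 FPKM).

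The question which silent members became measurable was answered by a fixed line: under 1 FPKM in every wild-type library and at least 1 FPKM in every deletion library. In Zp3-Cre oocytes 4 of 73 silent members crossed it, 5.48% beside 1.87% of all silent entries of the table, Hoxb4, Hoxd13 and Sox6 among them. In Gdf9-Cre oocytes it was 10 of 72, 13.9% beside 5.24%, among them Hoxb2, Hoxb4, Hoxd1, Sox3, Sox4, Sox6, Pax6, Pax9 and Gata6. Hoxd13 was not counted there because 3-month wild-type library 2 had 1.16 FPKM. In zygotes it was 4 of 74, 5.41% beside 3.57% (Hoxd13, Sox6 and Sox15 among them), and in 2-cell embryos 4 of 58, 6.90% beside 3.77% (Hoxd13, Sox6 and Gata6 among them). Sox6 crossed the line in each comparison. Sox4, the SoxC gene, was at 1.59, 2.10 and 1.28 FPKM in Gdf9-Cre oocytes against 0.235, 0.622 and 0.168 FPKM in 3-month wild-type oocytes, without overlap, at 0.99 ± 0.477 (limma, adjusted p = 0.0933). With a line of 0.5 FPKM the counts were 7, 10, 2 and 4, and with one of 2 FPKM they were 1, 8, 3 and 3. Without zygote deletion library 2 the zygote count was 7. The share over all entries was not counted under these alternatives, so these counts describe the members only. In the other direction no member went from at least 1 FPKM in every wild-type library to under 1 FPKM in every deletion library in Zp3-Cre oocytes (0 of 11, beside 0.794% of entries) or zygotes (0 of 10, beside 0.629%). In 2-cell embryos 5 of 23 did, beside 6.19% of entries: Hoxd9, Sox1, Sox30, Tbx20 and Gata1.

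Between wild-type zygotes and wild-type 2-cell embryos, across which the embryo's own genome becomes active, 22 members changed, 19 higher and 3 lower in 2-cell embryos, beside 68.5% of all tested genes, 44.5% higher and 24.0% lower. Quantile normalization turned the split of all genes to 4415 higher and 5764 lower, from 6134 and 3307 without it, and gave 12 members higher and 10 lower; median-of-ratios scaling gave 5346 and 4510 genes and 19 and 6 members. In wild-type zygotes 11 members had a mean of at least 1 FPKM, and in wild-type 2-cell embryos 24 did. The maternal-deletion 2-cell embryos share these wild-type libraries, so the values of the groups are given side by side and no overlap between the lists is drawn from them.

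Gata1, the erythroid Gata factor, was at 0, 0.191 and 0 FPKM in maternal-deletion zygotes and 0.217, 0.102 and 0 FPKM in wild-type zygotes. At the 2-cell stage it was at 0.402, 0 and 0.394 FPKM after maternal deletion and at 22.7 and 31.3 FPKM in wild type. It was thus near 0 everywhere except in the wild-type 2-cell embryos, and its log2 fold change of -4.47 ± 0.159 (limma, adjusted p = 2.15e-14) was the largest decrease of any member. Gata2 was at 0.494, 0.605 and 1.77 FPKM in maternal-deletion zygotes and 0.365, 0.569 and 0.330 FPKM in wild-type zygotes. It was at 2.02, 1.56 and 2.81 FPKM in maternal-deletion 2-cell embryos and 14 and 8.35 FPKM in wild-type ones (-1.94 ± 0.240, adjusted p = 6.46e-07). Gata4, already present in zygotes, was at 28.8, 38.3 and 31.9 FPKM in maternal-deletion 2-cell embryos and 78.0 and 86.5 FPKM in wild-type ones (-1.30 ± 0.163, adjusted p = 7.8e-07). All 3 were clearly separated at the 2-cell stage, and Gata3 and Gata6 were higher there, so the 5 tested Gata genes did not move one way.

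Tbx3, a factor of the limb and of pluripotent cells, was at 4.82, 3.71 and 4.2 FPKM in maternal-deletion zygotes and 5.73, 5.71 and 4.08 FPKM in wild-type zygotes. At the 2-cell stage it was at 3.88, 3.30 and 3.17 FPKM after maternal deletion and 30.1 and 25.6 FPKM in wild type (-2.69 ± 0.159, limma, adjusted p = 2e-11). Tbx20, a heart factor, was at 0.134, 0.0927 and 0 FPKM in maternal-deletion zygotes and listed at 0 in all wild-type zygotes. It was at 0.359, 0.446 and 0.269 FPKM in maternal-deletion 2-cell embryos and 12.4 and 3.80 FPKM in wild-type ones (-2.56 ± 0.245, adjusted p = 1.83e-08). The maternal-deletion 2-cell libraries were thus close to the zygote level for both genes, whereas the wild-type ones were not. Tbx2, the close relative of Tbx3 that acts in heart and limb, was at 0.0509, 0.218 and 1.59 FPKM against 4.02 and 1.23 FPKM, which overlap, and its call (-1.16 ± 0.294, adjusted p = 0.00173) was lost without wild-type library 1 (-0.58, adjusted p = 0.115). The overlap came from maternal-deletion library 3, without which the difference was -1.56 (adjusted p = 5.59e-06).

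**Figure D5:**
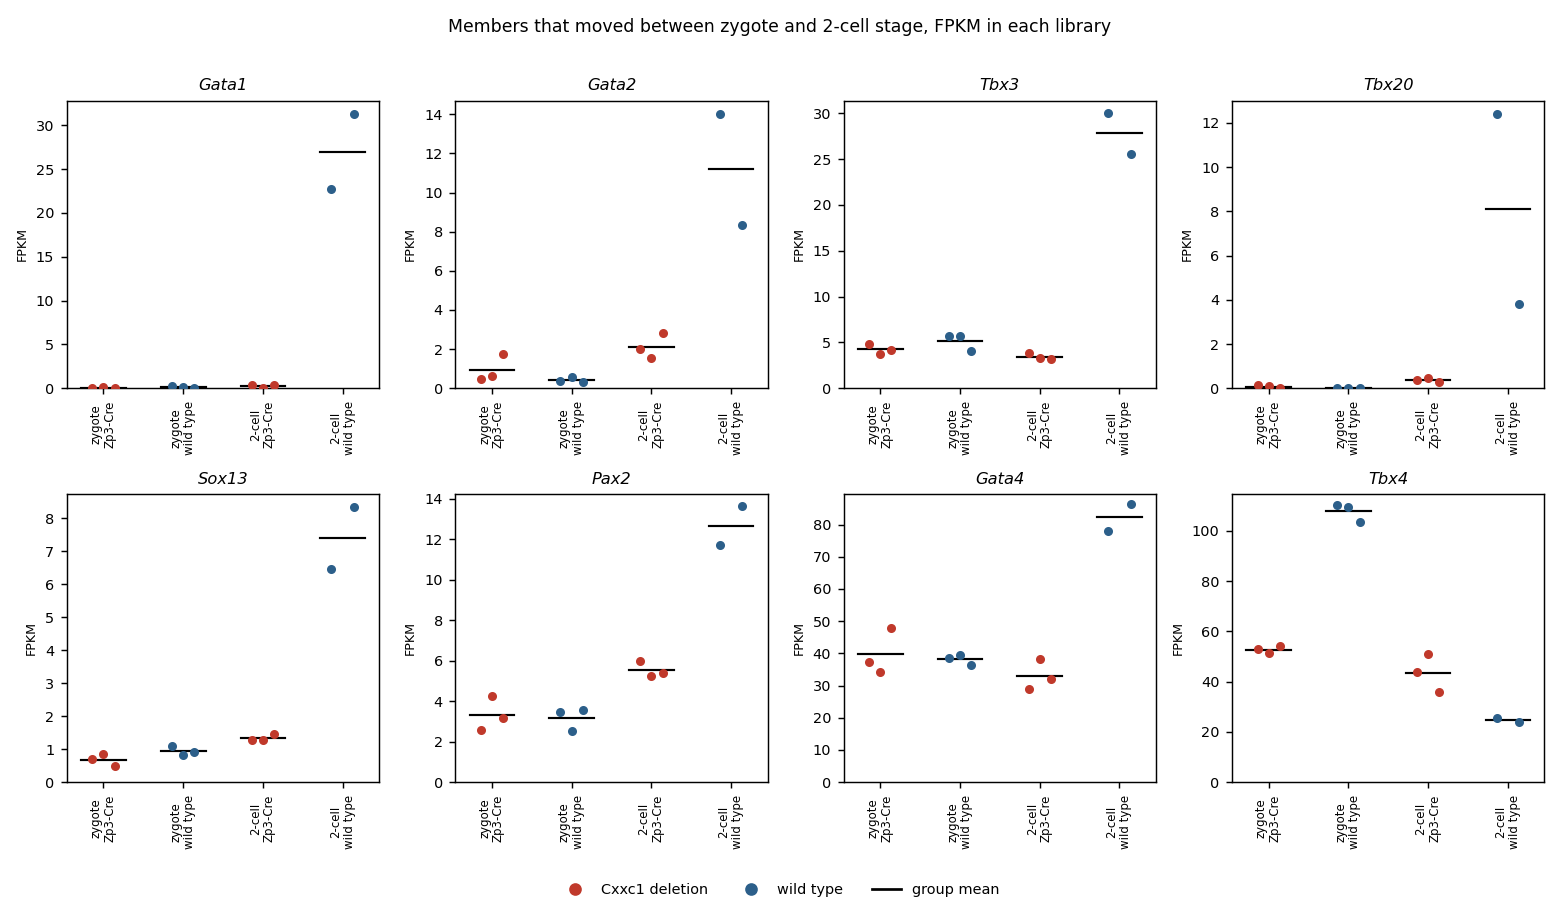
FPKM of Gata1, Gata2, Tbx3, Tbx20, Sox13, Pax2, Gata4 and Tbx4 in each library of zygotes and 2-cell embryos, maternal deletion left of wild type at each stage (points for libraries, short lines for means). In 7 panels the wild-type 2-cell embryos are above all other groups, as for Gata1 at 22.7 and 31.3 FPKM, and in the panel of Tbx4 they are the lowest, at 24.1 and 25.7 FPKM.

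Sox13 was at 1.28, 1.26 and 1.46 FPKM in maternal-deletion 2-cell embryos against 6.47 and 8.33 FPKM in wild-type embryos (-1.84 ± 0.200, limma, adjusted p = 1.14e-07), and Pax2 at 5.99, 5.24 and 5.39 FPKM against 11.7 and 13.7 FPKM (-1.06 ± 0.216, adjusted p = 0.000228). Both were separated, and neither differed in zygotes (-0.21, adjusted p = 0.365, and 0.04, adjusted p = 0.898). Sox4 and Sox12 depended on maternal-deletion library 3, the one that stood apart. Sox4 was at 0.311, 0.266 and 9.25 FPKM against 5.34 and 5.14 FPKM, so library 3 was above both wild-type libraries while the other two were far below. Its log2 fold change was -1.28 ± 0.534 with library 3 (adjusted p = 0.0415) and -2.28 without it (adjusted p = 2.52e-10), and it missed the threshold without any of the other 4 (-0.77 to -1.30). Sox12 was at 1.05, 0.648 and 4.94 FPKM against 4.42 and 5.35 FPKM, with -1.11 ± 0.358 over all libraries (adjusted p = 0.0102) and -1.67 without library 3 (adjusted p = 2.7e-06); it missed the threshold without deletion library 2 (-0.75, adjusted p = 0.0629) or wild-type library 2 (-1.0, adjusted p = 0.0745). The 8 oviduct epithelium markers summed to 30.8 FPKM in that library, against 9.71 and 6.96 FPKM in maternal-deletion libraries 1 and 2. In the wild-type libraries they summed to 53.1 and 45.7 FPKM. Krt19 was at 17.7 FPKM and Krt7 at 6.29 FPKM in library 3, while Epcam (2.16 FPKM) and Elf3 (3.27 FPKM) were close to libraries 1 and 2. The part of the stroma, granulosa, oviduct epithelium and blood markers of library 3 in these values was not tested.

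Several lower calls rested on wild-type 2-cell library 1, 1 of only 2 in its group. Hoxd1 was at 0.308, 0.220 and 1.01 FPKM in maternal-deletion 2-cell embryos against 3.42 and 1.40 FPKM in wild-type embryos (-1.14 ± 0.322, limma, adjusted p = 0.00395; -0.70, adjusted p = 0.124 without that library). Hoxd9 was at 0.270, 0.481 and 0.882 FPKM against 4.87 and 1.08 FPKM (-1.2 ± 0.328, adjusted p = 0.00325; -0.45, adjusted p = 0.23 without it). Both Hoxd genes were below each wild-type library, by a margin that library 1 widened. The calls of Pax9 (-0.56, adjusted p = 0.0136), Sox1, a neural SoxB1 gene (-0.41, adjusted p = 0.0119), and Pax3 (-0.45, adjusted p = 0.0468) were lost without it as well, at -0.12, -0.27 and -0.27. The call of Sox1 was also lost without deletion library 2 (-0.32, adjusted p = 0.0531), and that of Pax3 without any 1 of the deletion libraries (-0.41 to -0.48). Without wild-type library 2 the differences were -1.94 for Hoxd9, -1.75 for Tbx2 and -1.01 for Pax9. Sox30, at 0.428, 0.262 and 0.3 FPKM against 1.10 and 1.33 FPKM, kept its call (-0.74 ± 0.143, adjusted p = 0.000148) under every alternative in which it was tested. A filter of 3 libraries left it out of every comparison. Of the members called at this stage, that filter also left out Gata1, Tbx20, Hoxb7, Sox5 and Sox1.

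The deletion effects of the oocyte models differed for 4 members, all more positive in Gdf9-Cre oocytes (Hoxc13, Sox3 and Pax9 among them), beside 4.89% of all tested genes, 3.2% more positive and 1.68% more negative (limma, test of the difference). The split of all genes turned from 441 and 232 to 202 and 341 with median-of-ratios scaling and 199 and 414 with quantile normalization, while 3 and 2 members were called, all more positive. The effects in 2-cell embryos and zygotes differed for 17 members, 3 more positive and 14 more negative at the 2-cell stage, beside 53.9% of genes, 21.5% more positive and 32.4% more negative. Hoxd13, Sox6 and Gata3 were not among either set. With quantile normalization the split at the 2-cell stage was 9 and 9 members in place of 3 and 14, and that of all genes turned to 4924 more positive and 3570 more negative, from 2955 and 4465. With median-of-ratios scaling it was 6 and 13 members, and 4162 and 4072 genes.

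The age of the wild-type females moved no member past the threshold between 3 months and 3 weeks, beside 3.95% of all tested genes, 2.25% higher and 1.7% lower (limma). At an unadjusted p under 0.05 there were 2, Hoxd13 (0.42) and Sox13 (0.40), and with a pseudocount of 0.1 there was 1 call. Between wild-type zygotes and 3-week wild-type oocytes 70.1% of genes changed, 19.4% higher and 50.7% lower in zygotes, with a median over all genes of -0.47 that became -0.05 under median-of-ratios scaling. There 13 members were called, 7 higher in zygotes, led by Tbx3 (1.59 ± 0.142, adjusted p = 3.33e-09) and Gata4 (1.32 ± 0.146, adjusted p = 8.48e-08), and 6 lower, led by Sox15 (-3.30 ± 0.318, adjusted p = 1.13e-08) and Pax2 (-1.86 ± 0.193, adjusted p = 3.21e-08). With that scaling 14 were higher and 5 lower.

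Hox proteins bind DNA with partners of the Pbx, Meis and Pknox (Prep) types. Of 9 such genes 7 were tested, and 1, 1, 2 and 2 were higher and 4, 2, 0 and 4 lower in Zp3-Cre oocytes, Gdf9-Cre oocytes, zygotes and 2-cell embryos. Over all tested genes 18.3, 34.2, 35.3 and 37.1% were higher and 11.3, 15.2, 11.4 and 29.4% lower. Meis2 averaged 45.2 ± 7.64 FPKM in Zp3-Cre oocytes and 74.8 ± 3.01 FPKM in 3-week wild-type oocytes (SD, n = 3 each), and 37.2 ± 1.16 FPKM in Gdf9-Cre oocytes and 74.0 ± 2.00 FPKM in 3-month wild-type oocytes. Pbx2 fell in both oocyte models (-0.72 and -0.76) and rose in zygotes (0.56) and 2-cell embryos (1.17). Their calls thus ran in both directions in the oocytes and in 2-cell embryos.

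Genes of the Polycomb complexes and of the MLL complexes, which act against each other at Hox clusters, were called in both directions. The exception was the MLL list in 2-cell embryos, where no gene was lower. Over all tested genes 18.3, 34.2, 35.3 and 37.1% were higher and 11.3, 15.2, 11.4 and 29.4% lower in the same order. Of 11 PRC2 genes 3, 3, 3 and 5 were higher and 4, 3, 4 and 3 lower in the same order, with medians of -0.07, -0.13, -0.09 and 0.02 beside 0.09, 0.20, 0.22 and 0.16 for all genes. Ezh2, the catalytic subunit, was higher in 2-cell embryos (2.01 ± 0.135, limma, adjusted p = 1.2e-10). Of 17 tested PRC1 genes 4, 7, 8 and 5 were higher and 2, 2, 4 and 5 lower. Pcgf1 was at 222 ± 2.94 FPKM in Zp3-Cre oocytes and 371 ± 7.56 FPKM in 3-week wild-type oocytes. Of 10 tested MLL complex genes 1, 2, 2 and 6 were higher and 1, 3, 2 and 0 lower, with medians of 0.06, -0.07, 0.07 and 0.79. Ash2l, a subunit that MLL complexes share with SETD1 complexes, averaged 47.7 ± 5.09 FPKM in Zp3-Cre oocytes and 21.8 ± 1.06 FPKM in 3-week wild-type oocytes, and 53.1 ± 1.88 FPKM in Gdf9-Cre oocytes and 18.0 ± 0.409 FPKM in 3-month wild-type oocytes (SD, n = 3 each; 1.09 and 1.51, adjusted p = 4.58e-08 and 2.83e-10). It was higher in zygotes too (1.31 ± 0.0877, adjusted p = 2.24e-10).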

How the data were processed

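Gene expression was measured by RNA-seq in 23 libraries of 8 groups (RNeasy micro kit and NEBNext Ultra RNA libraries, per the labels' protocols). The authors deposited FPKM values for 24506 genes; CASAVA 1.4, TopHat2 2.0.12, Cufflinks 2.2.1 and SAMtools are named in the submitters' processing notes, with builds mm10 and mm9 and no roles for them. FPKM is relative within a library, so a change in total RNA cannot be seen. The deposited FPKM values were transformed to log2(FPKM + 1), genes with at least 1 FPKM in at least 2 libraries were kept (13776), and 1 limma model (limma 3.58.1 in R 4.3.3, trended variance, 15 residual degrees of freedom) was fitted to all 23 libraries with a mean per group, with Benjamini-Hochberg adjustment over all genes and a threshold of 0.05; the procedure was tested on simulated data. Python 3.11.15, pandas 2.3.3 and numpy 2.4.6 were used for the rest. Alternatives were a pseudocount of 0.1, no filter or one of 3 libraries, median-of-ratios scaling, quantile normalization, only the groups compared, the replicate number as a block, no variance trend, lines of 0.5 and 2 FPKM, and each library left out.

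The members, and the lists of cofactors, Polycomb and MLL genes, other families and markers, were chosen with earlier results of these data known, those of Hoxd13 and Sox3 among them. Values in every library are given for Hoxd13 and Sox3, for the members with the largest differences in each deletion comparison and for those that crossed 1 FPKM, and members called in a deletion comparison are named, except 1 that enters the counts and is not reported here. All 86 members matched a RefSeq symbol. Precision is limited by 2 or 3 libraries per group and by depths that FPKM does not hold.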

Additional observations from a re-analysis of the deposited data

Results flagged for a closer look

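The deletion effect differed between the oocyte models for 4 members (limma, test of the difference, Gdf9-Cre at 3 months minus Zp3-Cre at 3 weeks), beside 4.89% of all tested genes. The difference was 2.87 ± 0.577 for Sox3 (adjusted p = 0.00925), 0.98 ± 0.241 for Pax9 (0.024) and 0.80 ± 0.184 for Hoxc13 (0.0184), each more positive in Gdf9-Cre oocytes. Sox3 was lost with a pseudocount of 0.1 (adjusted p = 0.0961), Hoxc13 with that pseudocount (0.148), with quantile normalization (0.187) and without any 1 of 3 libraries (0.71 to 0.76). Pax9 was lost with that pseudocount (0.101), with both scalings (0.089 and 0.136) and without any 1 of 6 libraries (0.88 to 0.97). Driver and age cannot be told apart here.

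Between the embryo stages (2-cell effect minus zygote effect) 17 members differed, beside 53.9% of all tested genes. The deletion effect was more positive at the 2-cell stage for Tbx4 (1.79 ± 0.159), Hoxb7 (0.83 ± 0.208, with the wild-type libraries listed at 0) and Sox5 (0.49 ± 0.191). It was more negative for the other 14: Gata1 (-4.41 ± 0.213), Tbx20 (-2.67 ± 0.329), Tbx3 (-2.47 ± 0.213), Gata2 (-2.35 ± 0.322), Hoxd1 (-2.06 ± 0.431), Sox13 (-1.62 ± 0.269), Sox12 (-1.42 ± 0.480), Sox15 (-1.36 ± 0.477), Gata4 (-1.34 ± 0.219), Tbx2 (-1.24 ± 0.395), Pax2 (-1.10 ± 0.289), Pax3 (-0.85 ± 0.260), Sox30 (-0.72 ± 0.192) and Tbx19 (-0.45 ± 0.147). The adjusted p of limma was between 4.69e-12 for Gata1 and 0.0363 for Sox5. Of these, Sox5, Sox12, Sox15, Pax3 and Tbx2 lost the call without at least 1 library, Tbx2 falling to -0.65 without wild-type 2-cell library 1 (adjusted p = 0.165) and Sox5 to 0.38 without maternal-deletion 2-cell library 3 (adjusted p = 0.0721). Pax2, Pax3, Sox15, Sox30 and Tbx19 lost it under quantile normalization.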

How the results depend on the processing

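Of 82 calls of members in the 4 deletion comparisons, 57 held under all alternatives that tested them, 25 were lost under at least 1 and 0 reversed. The filter of 3 libraries did not test 11 of the 82, 6 of them among the 57, and with it 15, 22, 14 and 20 members were called in Zp3-Cre oocytes, Gdf9-Cre oocytes, zygotes and 2-cell embryos, in place of 15, 26, 14 and 27. Over all genes that filter gave 4057, 6678, 6412 and 8670 calls in the same order, in place of 4081, 6818, 6431 and 9159. With only the groups compared 15, 27, 12 and 19 members were called, beside 4984, 8547, 6125 and 6771 genes. Leaving out libraries moved the number of called members to 11 to 13 in Zp3-Cre oocytes, 24 to 26 in Gdf9-Cre oocytes, 11 to 13 in zygotes and 20 to 28 in 2-cell embryos. The members that crossed 1 FPKM numbered 4 to 5, 10 to 11, 4 to 7 and 4 to 5 in the same order. With a line of 0.5 FPKM there were 7 in Zp3-Cre oocytes and 2 in zygotes, and with 2 FPKM 1 in Zp3-Cre oocytes; median-of-ratios scaling gave 2 in zygotes, and leaving out zygote deletion library 2 gave 7. Same-numbered libraries correlated at -0.069 to 0.058 in their deviations, so the numbers do not pair them. The fit with a replicate block called 14, 26, 14 and 27 members, beside 4007, 6755, 6387 and 9074 genes. It ended 1 call, Sox2 in Zp3-Cre oocytes.

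Between 3-month and 3-week wild-type oocytes 544 genes were called, 2482 with only the groups compared and 265 to 318 without 1 library, and 1 member with a pseudocount of 0.1. Between wild-type zygotes and 3-week wild-type oocytes 23 members were called under quantile normalization in place of 13, beside 9565 genes in place of 9659. There Tbx19 turned to 0.61 with median-of-ratios scaling and 0.74 with quantile normalization. Between wild-type 2-cell embryos and zygotes quantile normalization turned Sox30 to -0.10 and Pax3 to -0.25. The difference between the oocyte models held for 673 genes and 4 members, for 363 and 2 with a pseudocount of 0.1, for 2448 and 10 with only the groups compared, for 2 members under quantile normalization, and for 358 to 767 genes and 2 to 5 members without 1 library. The causes were not tested. Under quantile normalization 8 members were higher and 5 lower in Zp3-Cre oocytes (1741 and 1872 genes), 16 and 5 in Gdf9-Cre oocytes (2822 and 3236 genes), 6 and 9 in zygotes (2817 and 3498 genes), and 10 and 14 in 2-cell embryos (5207 and 4079 genes). Values under 1 FPKM rest on few fragments.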

Other observations

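Members below the filter were also fitted without it. None of the 49 was called in Zp3-Cre oocytes or zygotes, where 15.1% and 24.8% of all 24506 entries were. In Gdf9-Cre oocytes 6 were higher and 0 lower, beside 20.2% and 8.18% of all entries. Hoxb1, a hindbrain gene, averaged 0.814 FPKM against 0.0207 FPKM in 3-month wild-type oocytes, and Sox17, an endoderm factor, 0.648 FPKM against 0.0399 FPKM; Hoxc6, Sox18, Tbx10 and Tbx18 were the others. In maternal-deletion 2-cell embryos, where 21.0% of all entries were higher and 19.5% lower, 7 were higher, Hoxb8 among them at 0.566 FPKM against 0.0561 FPKM, and 5 were lower, Tbx21, the T-bet factor of T cells, among them at 0.0237 FPKM against 0.552 FPKM in wild-type embryos. All of these levels are under 1 FPKM.

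The other families of developmental factors, such as the Fox, Lhx, Irx and Pou genes, numbered 118 by symbol, of which 49 were tested. Of these 8, 18, 10 and 11 were higher and 5, 12, 5 and 26 lower in Zp3-Cre oocytes, Gdf9-Cre oocytes, zygotes and 2-cell embryos. Over all tested genes 18.3, 34.2, 35.3 and 37.1% were higher and 11.3, 15.2, 11.4 and 29.4% lower. Of 10 markers of the 2-cell embryo 9 were lower in maternal-deletion 2-cell embryos, and 3, 7 and 3 were higher in Zp3-Cre oocytes, Gdf9-Cre oocytes and zygotes. Zscan4d averaged 7.22 ± 0.727 FPKM in Zp3-Cre oocytes and 1.62 ± 0.370 FPKM in 3-week wild-type oocytes (SD, n = 3 each; 1.65 ± 0.251, limma, adjusted p = 6.41e-05).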
